A study of Mus musculus with 24 samples.

Results

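Interferon-stimulated genes are the genes that cells switch on after sensing type I interferon. The 36 examined here were found by symbol among the 47069 genes of the count table, and all 36 matched an Ensembl identifier. They were described in 24 RNA-seq libraries of mouse fetal liver cells (Gata1s-FLCs) from embryos at stage E12.5-13.5. Every group, controls included, came from B6J.129(Cg) mice with the allele tm1.1(CAG-cas9*,-EGFP)Fezh/J at Gt(ROSA)26Sor, in which the broadly active CAG promoter drives Cas9 and EGFP, and every group carried the guide transgene sgGata1. Gata1s is the short form of the blood transcription factor GATA1 found in the myeloid leukaemia of children with Down syndrome. The cells carried miR-125b or, as controls, miR-ctrl. The groups had 1 µg/mL doxycycline for 48 h (day 2), for 10 days (day 10) or for 13 days (day 13), or were collected on day 13 after the drug was withdrawn on day 10 (day 13 withdrawal). Each of the 8 groups had 3 libraries, numbered 1 to 3 in the labels. The labels do not say what libraries of the same number share, nor that they came from separate cultures or embryos, so the p-values measure only the spread between these libraries.

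Type I interferon binds the receptor IFNAR1/IFNAR2. The kinases JAK1 and TYK2 then activate STAT2, which joins IRF9 in a complex named ISGF3. ISGF3 binds the interferon-stimulated response element in promoters and raises sensors, antiviral effectors and inhibitors such as USP18. Many cells, blood progenitors among them, hold a low tonic level of these transcripts without infection. In bulk RNA, fewer cells of a type and less RNA per cell cannot be told apart.

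The sequence shared by many of these promoters, and bound by the complex that contains the products of Stat2 and Irf9, is shown first. Windows of 30 bases are given from RefSeq promoters (GRCm38.p6, the same assembly as mm10), 5′ to 3′ on the strand of the gene, with a match in capitals. The motif was GAAA, any 2 bases and GAAA again, and it was searched on both strands, so that it reads TTTC, any 2 bases and TTTC where it lies on the opposite strand. They were chosen because these genes are described below and the match lies upstream of the start site.
Isg15, chr4:156200871-156200900, minus strand: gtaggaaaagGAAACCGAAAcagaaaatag
Ifit1, chr19:34640794-34640823, plus strand: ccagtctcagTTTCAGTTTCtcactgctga
Rsad2, chr12:26456553-26456582, minus strand: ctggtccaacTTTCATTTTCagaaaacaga
Stat2, chr10:128270266-128270295, plus strand: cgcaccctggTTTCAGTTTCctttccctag
Oas1a, chr5:120907526-120907555, minus strand: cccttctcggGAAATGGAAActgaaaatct
Bst2, chr8:71537583-71537612, minus strand: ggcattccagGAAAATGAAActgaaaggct

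The Isg15 promoter holds overlapping matches side by side, of which 1 is shown. A promoter of 300 bases (250 before to 50 after the start) was present for 28 of the 36 genes; it was missing for Dhx58, Zbp1, Mx1, Usp18, Parp9, Parp14, Ifi27 and Rtp4. The motif was in 12 of the 28 (42.9%), against 3.99% of 27025 genes. The longer form with a C after the second GAAA, which contains it, was in 11 of the 28 (39.3%) against 0.944% of all genes. A match describes these letters only.

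The mature miR-125b-5p is shown because its seed (bases 2 to 8, capitals) defines the sites that it could pair with in messenger RNA.
mmu-miR-125b-5p: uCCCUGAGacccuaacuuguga
The complementary site CTCAGGG was in the longest 3′ untranslated region of 7 of the 34 tested genes (20.6%), namely Irf1, Ifih1, Oas1a, Rsad2, Trim30a, Parp14 and Ifi35. Among all tested genes with such a region the share was 17.3% (2019 of 11678). The mature microRNA itself was not measured in these libraries.

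The libraries held 14694900 to 23755245 counts, and TMM scaling factors ran from 0.932 to 1.04. Arid3a, a described target of miR-125b, served as a check of the labels. Its mean level in the miR-125b and control groups was 34.1 and 59.7 CPM (counts scaled to library size) on day 2, 31.8 and 58.5 on day 10, and 31.2 and 69.5 after withdrawal. On day 13 under continued drug it was 52.2 and 61.0 CPM with overlapping libraries, so those groups are called the libraries labelled miR-125b or control, day 13, and directions drawn from them rest on the label. After withdrawal, when the inducer had been removed, the level of Arid3a in the miR-125b group stood at its day 10 level. Whether the labels day 13 and day 13 withdrawal of the miR-125b arm were exchanged cannot be told from these levels. All miR-125b results of day 13 and of withdrawal below rest on those labels. Slc4a1, a marker of mature red cells, was 0 in all libraries, while the megakaryocyte markers were abundant (2820 to 7270 CPM summed over 10 genes). Of the 24 libraries, replicate 3 of the miR-125b group on day 2 stood highest for these genes, and counts without it are given with the replicate comparisons.

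Levels per kilobase of exon spanned several orders of magnitude. Ifitm3, which blocks virus entry at membranes, led with a mean of 1067 CPM per kb, followed by Ifi27 with 71.6, the secreted glycoprotein gene Lgals3bp with 65.6 and the virion tether Bst2 with 59.1 CPM per kb. At the low end stood Ifit1 with 0.229 CPM per kb and the nucleic acid sensor Zbp1 with 0.0891 CPM per kb. Ifit3 (0 to 8 counts per library) and Ifi44 (0 to 1 counts) did not pass the filter on low counts and were not tested. The other 34 were tested among 13419 genes. Of the 20 listed interferon genes none reached the filter, and the highest count in any library was 7, for Ifnz. Ifng and 15 other interferon genes had a count of 0 everywhere, which allows up to 3 counts in a library (counting error only). The receptor was present, with medians of 42.1 CPM for Ifnar1 and 26.8 CPM for Ifnar2.

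More of these genes passed the test for replicate number than for miR-125b, drug withdrawal or time. In the model of the 8 groups, 1 of the 34 genes passed the test for miR-125b over all conditions, and 1 for day 13 against day 10. In the model with groups and replicate numbers together, which paired same-numbered libraries, at most 6 passed in any such comparison. In that model 22 of the 34 (64.7%) differed between numbers, against 38.4% of all genes tested. A comparison of numbers set 8 libraries against 8, and most condition comparisons set 3 against 3. The common dispersion, the fitted spread between libraries, was 0.0591 without replicate numbers and 0.0169 with them. The tests thus differ in power, and these counts do not rank the sizes of the effects. The replicate number took a median of 27.8% of the variance of log2 level in the members and 18.4% in all tested genes. The group took 42.5% and 36.5%. These shares are descriptions, without a test of their difference. The group has 8 levels and the replicate number 3, so the shares of the group and the number are not on equal terms.

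**Figure D1:**
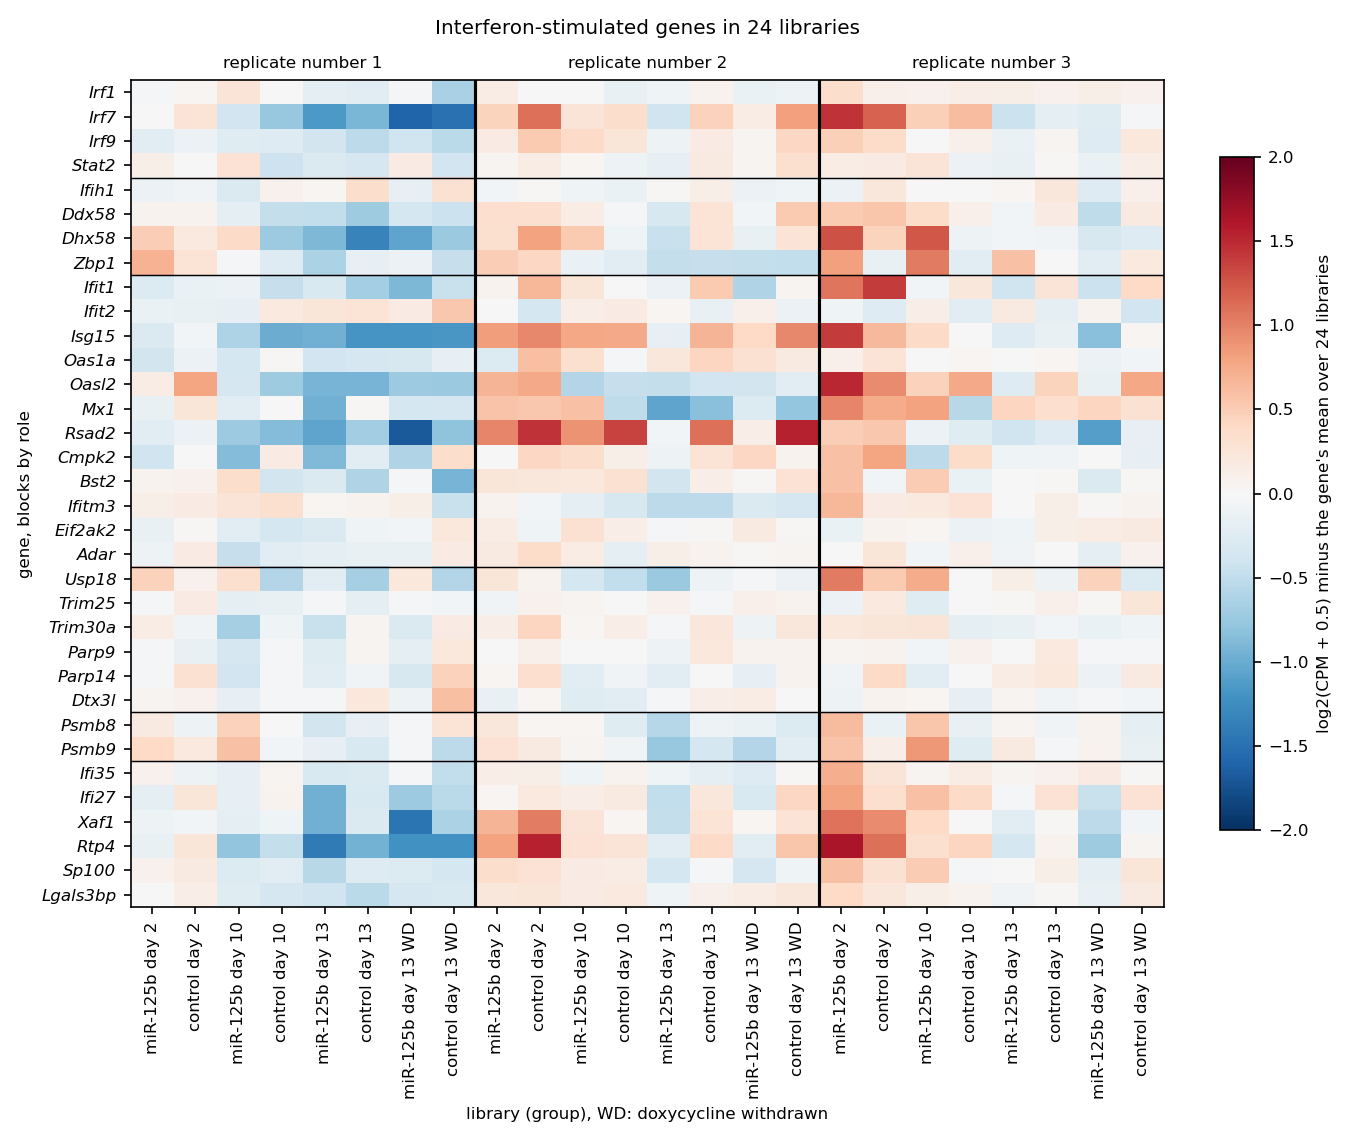
Deviation of log2(CPM + 0.5) from each gene's own mean for the 34 tested genes (rows, in blocks by role) in 24 libraries (columns, sorted by replicate number, then group; WD, withdrawal). Blue is below and red above the mean. Replicate 1 is mostly blue after day 2, with Isg15, Irf7, Rsad2 and Rtp4 among the deepest.

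Replicate 1 was the low set. Against it, 18 of 34 genes were higher in replicate 2 (18.5% of all tested genes were) and 1, Ifitm3, was lower (16.6% of all tested genes were). In replicate 3, 17 of 34 were higher than in replicate 1 (5.97% of all tested genes) and none lower by edgeR (5.33%), and 32 of 34 had a positive fold change; the median log2 difference was 0.35, against -0.0017 for all genes. Without an adjustment, 24 of the 34 had an edgeR p under 0.05 in that comparison, beside 24.9% of all tested genes. Between replicates 3 and 2 the direction was mixed, with 6 genes higher (12.4% of all tested genes were) and 2 lower (13.9%). In the 12 control libraries alone, where 33 of the genes were tested, 14 passed for replicate 2 against 1 (29.3% of all tested genes did), 10 for replicate 3 against 1 (9 higher and 1 lower, against 5.64%) and 5 for replicate 3 against 2 (19.4%). In the 12 miR-125b libraries alone the counts were 15 of 34 (23.3%), 12 (4.70%) and 7 (15.3%). Replicate 1 was the lowest of the 3 libraries in 8 of 8 groups for 7 genes (Irf7, Irf9, Isg15, Rsad2, Xaf1, Rtp4 and Lgals3bp), and in at least 7 groups for 15 of 34. The share of all tested genes with this order was not computed, so the order is not shown to be particular to these genes. The p-values describe these 3 sets of 8 libraries and no condition, since libraries of 1 number may come from 1 culture.

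**Figure D2:**
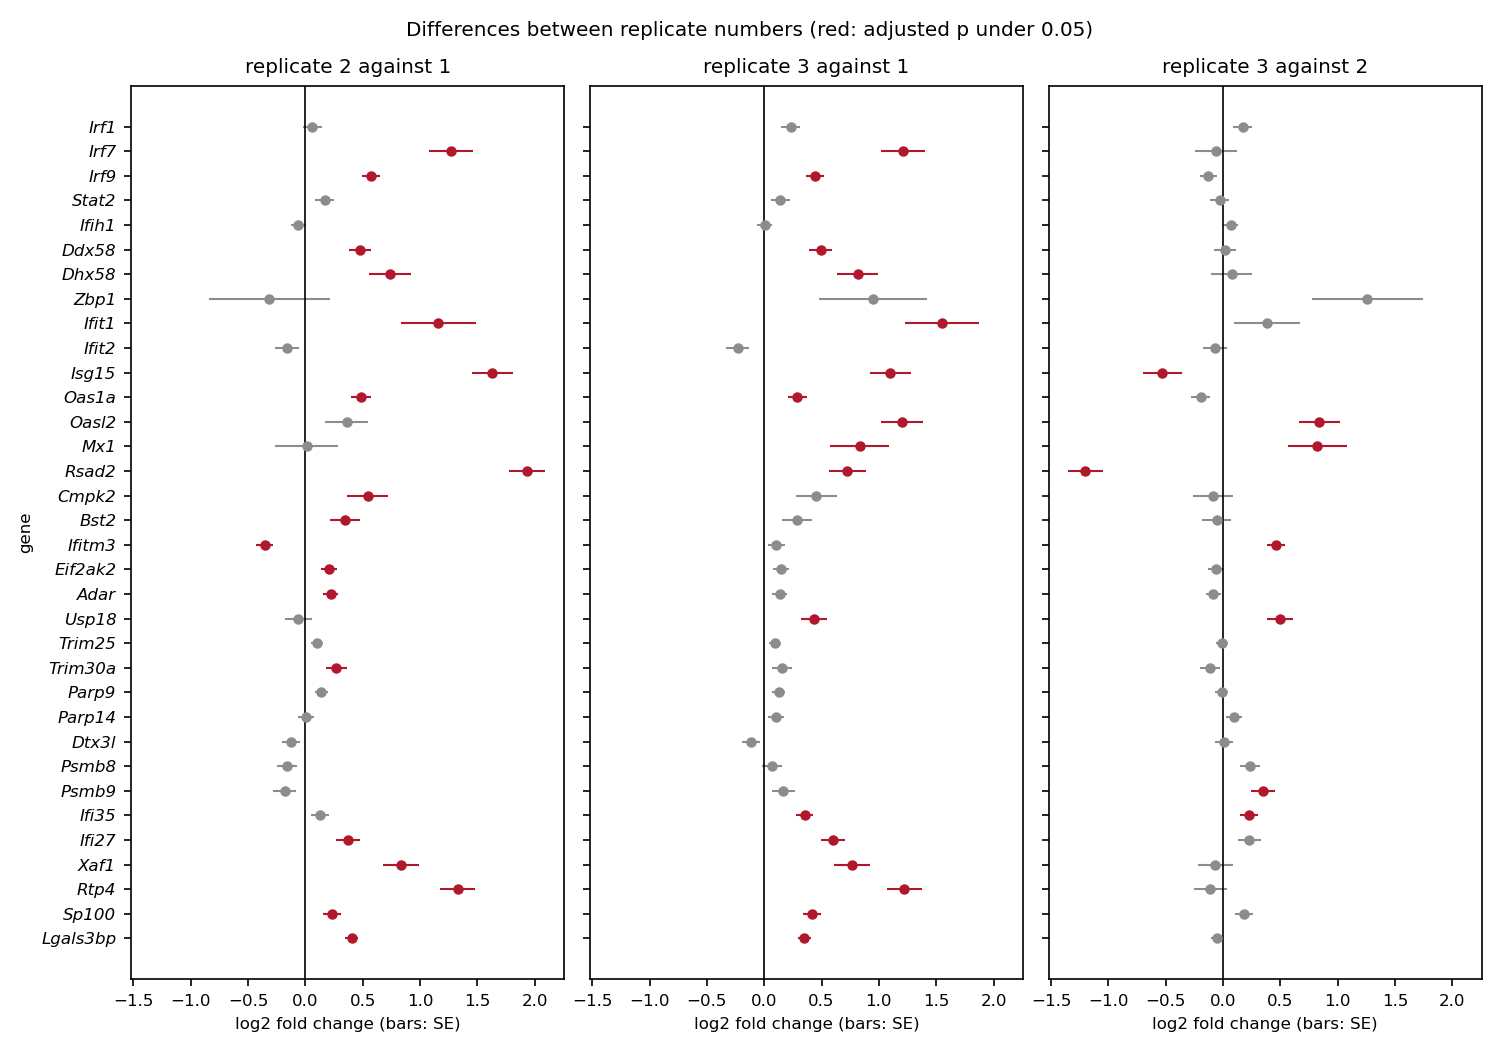
Log2 fold change with its standard error for each tested gene between replicate numbers, from the model with group and replicate number (24 libraries). Red points passed an adjusted p of 0.05. Rsad2 stands at 1.93 for replicate 2 against 1, and in the middle panel all 17 red points lie right of 0.

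The transcription factors differed among themselves. Irf7, the factor that amplifies the interferon response, measured 5.96, 8.22 and 17.03 CPM in replicates 1, 2 and 3 of the miR-125b group on day 2, and 7.32, 13.3 and 14.1 CPM in the controls. On day 10 its levels were 4.41, 7.15 and 8.49 CPM with miR-125b and 3.31, 7.67 and 9.33 CPM without. On day 13 they were 2.40, 4.36 and 4.25 CPM in the libraries labelled miR-125b and 2.91, 8.38 and 5.20 CPM in those labelled control. After withdrawal they were 1.62, 6.65 and 4.96 CPM, and 1.78, 10.9 and 5.85 CPM. In each of these 8 groups replicate 1 was lowest, while the ranges of the miR-125b and control groups overlapped at every time. Irf7 was higher by 1.27 ± 0.19 on the log2 scale (SE) in replicate 2 and by 1.21 ± 0.19 in replicate 3 than in replicate 1 (edgeR adjusted p = 2.5e-05 and 0.00029).

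Irf9, the DNA-binding part of ISGF3, followed the same order at a higher level. In replicates 1, 2 and 3 it measured 24.9, 32.8 and 41.1 CPM with miR-125b on day 2, and 27.1, 42.2 and 38.0 CPM in controls. On day 10 it measured 24.6, 38.4 and 29.02 CPM with miR-125b, and 24.3, 34.7 and 31.5 CPM in controls. Again replicate 1 was lowest in each group. The libraries labelled day 13 gave 22.6, 27.2 and 26.5 CPM with miR-125b and 20.2, 32.7 and 30.3 CPM as controls. After withdrawal the values were 22.1, 30.4 and 24.5 CPM with miR-125b and 19.9, 39.0 and 33.9 CPM in controls. Irf9 was 0.57 ± 0.08 higher on the log2 scale in replicate 2 than in replicate 1 (edgeR adjusted p = 4.93e-06) and 0.45 ± 0.08 higher in replicate 3 (0.000647). Its last exons share bases with Rnf31 on the same strand in the annotation, so reads there may have been divided between the genes.

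Stat2, the partner of IRF9, did not pass the test for the replicate number (log2 difference of replicate 2 from 1, 0.17 ± 0.08, edgeR adjusted p = 0.116). Its levels ran from 30.9 to 51.6 CPM over the 24 libraries. On day 10 they were 50.3, 42.3 and 49.1 CPM with miR-125b and 30.9, 38.3 and 37.9 CPM in controls, ranges that did not overlap. That log2 difference of 0.40 ± 0.15 did not pass (adjusted p = 0.162). On day 2 Stat2 stood at 44.5, 42.9 and 46.0 CPM with miR-125b and at 41.1, 45.8 and 46.3 CPM in controls. On day 13 it was 33.7, 36.9 and 37.0 CPM against 32.7, 46.8 and 42.0 CPM, and after withdrawal 46.4, 42.9 and 37.4 CPM against 31.4, 51.6 and 45.3 CPM. These 3 pairs of groups overlapped.

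**Figure D3:**
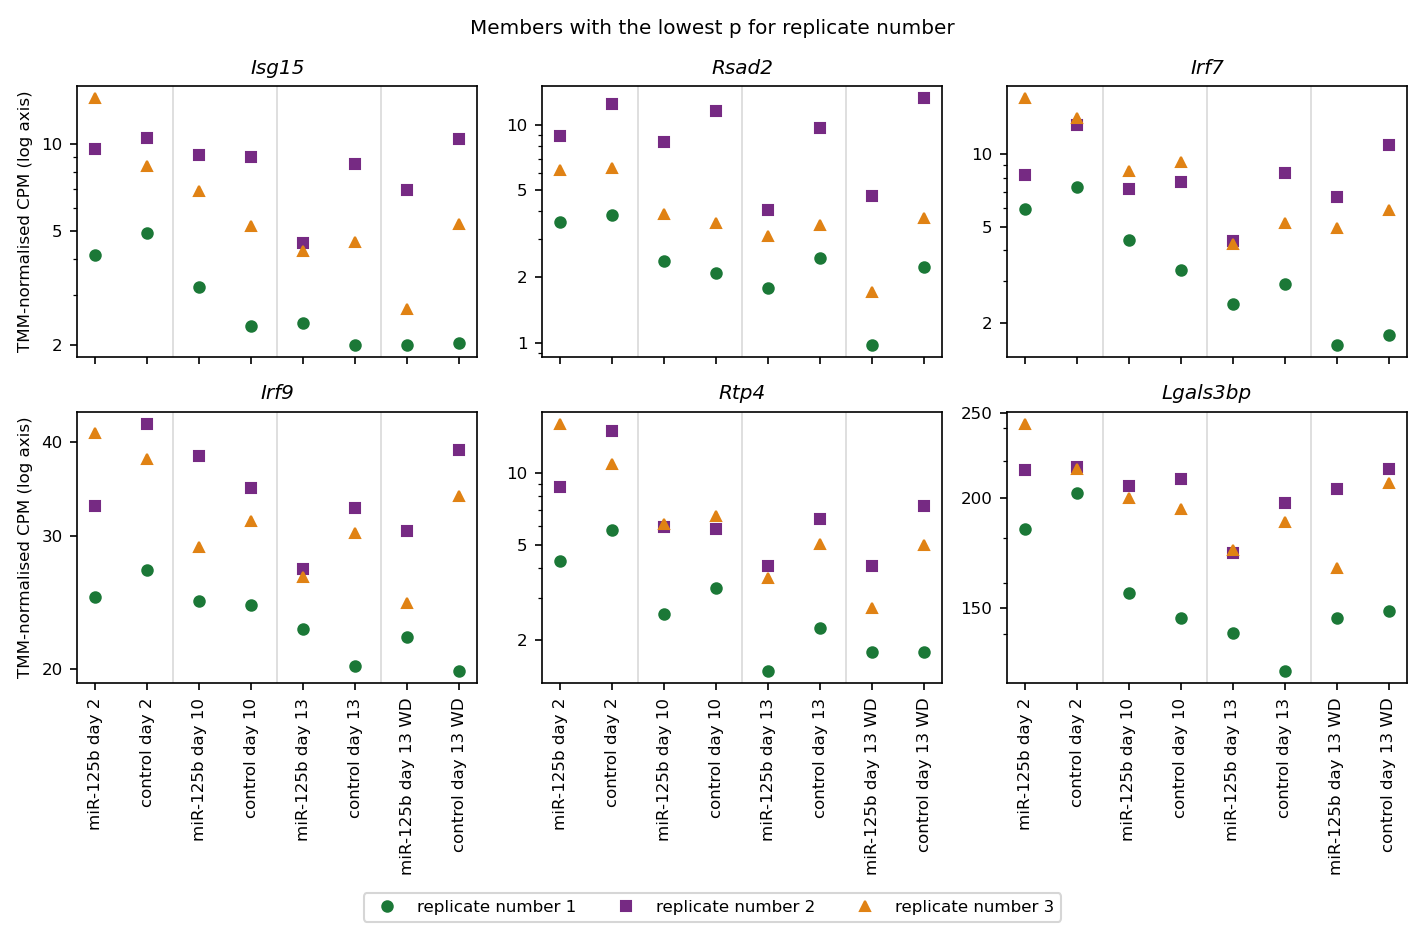
TMM-normalised CPM (log axis) of the 6 genes with the lowest p for any replicate number, in each of the 8 groups (WD, withdrawal). Each point is 1 library, with colour and shape for its number. The green circles of replicate 1 are the lowest point in 8 of 8 groups for all 6 genes shown.

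Among the effectors, Rsad2 (viperin, an enzyme that makes a chain-terminating nucleotide) had the widest gap, with replicate 2 highest and replicate 1 lowest in 8 of 8 groups. On day 2 it measured 3.59, 8.86 and 6.19 CPM in replicates 1, 2 and 3 with miR-125b, and 3.85, 12.4 and 6.35 CPM in controls. On day 10 the values were 2.36, 8.32 and 3.89 CPM, and 2.09, 11.6 and 3.53 CPM. On day 13 they were 1.77, 4.08 and 3.09 CPM in the libraries labelled miR-125b, and 2.44, 9.66 and 3.47 CPM in those labelled control. Replicate 2 of the controls was the highest library at each time. After withdrawal the levels were 0.974, 4.72 and 1.71 CPM with miR-125b and 2.23, 13.2 and 3.74 CPM in controls. Rsad2 was 1.93 ± 0.16 higher on the log2 scale in replicate 2 than in replicate 1 and 1.2 ± 0.15 higher than in replicate 3 (edgeR adjusted p = 8.27e-09 and 3.74e-06). Its promoter match is shown above; the gene lies at chr12:26442746-26456452 in mm10, next to Cmpk2 at chr12:26469204-26479837.

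Isg15 encodes the ubiquitin-like protein that is conjugated to other proteins after interferon. In replicates 1, 2 and 3 it measured 4.11, 9.63 and 14.5 CPM with miR-125b on day 2 and 4.93, 10.5 and 8.40 CPM in controls. On day 10 it measured 3.20, 9.18 and 6.86 CPM with miR-125b and 2.33, 9.02 and 5.21 CPM in controls. Replicate 1 was again the lowest in each group. The libraries labelled day 13 gave 2.40, 4.53 and 4.25 CPM with miR-125b, and 2.01, 8.56 and 4.58 CPM as controls. After withdrawal Isg15 stood at 2.002, 6.94 and 2.67 CPM with miR-125b and at 2.04, 10.5 and 5.29 CPM in controls. It was 1.63 ± 0.18 higher on the log2 scale in replicate 2 than in replicate 1 (edgeR adjusted p = 3.88e-07) and 1.1 ± 0.18 higher in replicate 3 (0.000344).

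Ifit1, which binds viral RNA that lacks a host cap, was scarce, with 1 to 45 counts per library. It measured 0.347, 0.584 and 1.65 CPM in replicates 1, 2 and 3 with miR-125b on day 2, and 0.434, 1.13 and 2.20 CPM in controls. On day 10 it was 0.447, 0.710 and 0.486 CPM, and 0.243, 0.537 and 0.705 CPM. On day 13 it was 0.336, 0.447 and 0.276 CPM in the libraries labelled miR-125b, and 0.143, 0.978 and 0.727 CPM in those labelled control. Replicate 1 was lowest in 7 of 8 groups. After withdrawal it was 0.0541, 0.175 and 0.267 CPM with miR-125b, and 0.254, 0.573 and 0.861 CPM in controls. Ifit1 was 1.55 ± 0.32 higher in replicate 3 than in replicate 1 and 1.16 ± 0.33 higher in replicate 2 on the log2 scale (edgeR adjusted p = 0.00281 and 0.00839).

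The remaining effectors split by number. Oasl2, a relative of the 2′-5′ oligoadenylate synthetases, was highest in replicate 3 in 8 of 8 groups, 1.2 ± 0.18 above replicate 1 and 0.84 ± 0.18 above replicate 2 on the log2 scale (edgeR adjusted p = 0.000187 and 0.00122). Mx1, an antiviral GTPase, was 0.83 ± 0.26 higher in replicate 3 than in replicate 1 (adjusted p = 0.0408; 0.0634 without replicate 3 of the miR-125b group on day 2) and did not pass between replicates 2 and 1. Oas1a, a synthetase of the activator of RNase L, was higher in replicates 2 and 3 than in 1 (0.48 ± 0.08 and 0.29 ± 0.08, adjusted p = 0.000102 and 0.0278; the second became 0.0749 without that library). Cmpk2, Bst2, Eif2ak2 (the kinase PKR) and the RNA editor gene Adar passed for replicate 2 against 1 only, with log2 differences of 0.54, 0.34, 0.21 and 0.22; whether that differs from replicate 3 was tested in the comparison of 3 with 2, which none of these 4 passed. Without the same library the adjusted p of Bst2 was 0.051. Ifitm3 went the other way, 0.36 ± 0.08 lower in replicate 2 than in 1 (adjusted p = 0.000822). Ifit2 passed in none of the comparisons of numbers.

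Among other interferon-induced genes, Rtp4, a chaperone of receptors with antiviral activity, was lowest in replicate 1 in 8 of 8 groups. It measured 4.28, 8.76 and 15.99 CPM in replicates 1, 2 and 3 with miR-125b on day 2, and 5.75, 14.9 and 10.9 CPM in controls. On day 10 it measured 2.56, 5.94 and 6.11 CPM with miR-125b, and 3.31, 5.80 and 6.62 CPM in controls. By day 13 the libraries labelled miR-125b gave 1.49, 4.08 and 3.64 CPM and those labelled control 2.25, 6.42 and 5.03 CPM. Day 2 thus held the highest level in either arm. After withdrawal Rtp4 was at 1.79, 4.08 and 2.72 CPM with miR-125b, and at 1.78, 7.26 and 4.99 CPM in controls. It was 1.33 ± 0.15 higher on the log2 scale in replicate 2 than in 1 (edgeR adjusted p = 7.8e-07) and 1.22 ± 0.15 higher in replicate 3 (2.41e-05).

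Lgals3bp was abundant, and its gap was small but regular. It measured 185, 215 and 243 CPM in replicates 1, 2 and 3 with miR-125b on day 2, and 202, 217 and 216 CPM in controls. On day 10 the values were 156, 206 and 200 CPM with miR-125b and 146, 210 and 194 CPM in controls. On day 13 they were 140, 173 and 175 CPM in the libraries labelled miR-125b, and 127, 197 and 188 CPM in those labelled control. Replicate 1 was lowest throughout. After withdrawal they were 146, 204 and 166 CPM, and 149, 216 and 208 CPM. Lgals3bp was 0.40 ± 0.06 higher in replicate 2 and 0.35 ± 0.06 higher in replicate 3 than in replicate 1 on the log2 scale (edgeR adjusted p = 7.51e-06 and 0.000284). Xaf1, a promoter of apoptosis, was higher by 0.83 ± 0.16 and 0.76 ± 0.16 in the same comparisons (adjusted p = 0.000262 and 0.00279).

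Not all of the genes followed the replicate number. Ifih1 (the RNA sensor MDA5) and Parp14 had the highest p for it among genes with an average level of at least 1 CPM. Ifih1 ranged from 26.9 to 42.2 CPM in replicate 1, from 30.2 to 35.7 in replicate 2 and from 27.5 to 38.7 in replicate 3. Of the sensors, Ddx58 (RIG-I) and its relative Dhx58 (LGP2) were higher in replicates 2 and 3 than in 1, by 0.48 and 0.49 for Ddx58 and by 0.74 and 0.81 for Dhx58 on the log2 scale. Among the 6 genes of ISG15 conjugation, ubiquitin ligation and ADP-ribosylation, Trim30a passed for replicate 2 against 1. Usp18 was higher in replicate 3 than in 1 and in 2 (log2 differences 0.436 and 0.497, edgeR adjusted p = 0.0163 and 0.00271). Trim25, Parp9, Parp14 and Dtx3l passed in no comparison of numbers. Of the immunoproteasome genes Psmb8 and Psmb9, which trim peptides for MHC class I, neither differed from replicate 1, and Psmb9 was 0.35 ± 0.10 higher in replicate 3 than in 2 (edgeR adjusted p = 0.0145). Whether a promoter held the GAAA motif shown above did not sort the calls cleanly: 8 of 11 tested genes with it and 7 of 15 without were higher in replicate 2 than in 1, and 5 of 11 and 7 of 15 in replicate 3.

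Markers of other cell types moved with the replicate number too. The 10 megakaryocyte markers summed to a median of 3350 CPM in replicate 1 (2820 to 4450), 5920 in replicate 2 (5190 to 7270) and 4400 in replicate 3 (3320 to 6210). Of these, 10 of 10 were higher in replicate 2 than in 1 (18.5% of all tested genes were). In replicate 3, 7 of the 10 were higher than in 1 (5.97%) and 5 were lower than in 2 (13.9%). The 8 mast cell and basophil markers summed to medians of 387, 1090 and 412 CPM (ranges 300 to 611, 884 to 1410 and 344 to 701). Most of it came from Gata2 (medians 337, 862 and 371 CPM). From replicate 1 to 3 the medians of Fcer1a (11.0, 25.6 and 3.72 CPM) and Tpsb2 (3.51, 33.7 and 15.8 CPM) went opposite ways. None of the 8 passed for replicate 3 against 1. The erythroid markers summed to 316, 274 and 353 CPM (275 to 351, 263 to 293 and 310 to 371). Of the 8 tested, 5 were lower and 1 higher in replicate 2 than in 1 (16.6% and 18.5% of all tested genes). In replicate 3, 6 were higher than in 2 (12.4%). Stromal and endothelial markers summed to 49.6, 11.7 and 41.2 CPM, nearly all of it from Pdgfrb (medians 47.3, 8.42 and 36.5 CPM). Col1a1 of the same list went the opposite way (0.0769, 0.638 and 0.111 CPM), and 4 of its 7 genes did not pass the filter. Neutrophil markers summed to 35.2, 21.0 and 41.2 CPM, with 1 of 6 tested, Prtn3, lower in replicate 2 than in 1. Prtn3 had the highest medians of the list (28.9 CPM in replicate 1 and 34.8 CPM in replicate 3). Mpo went the opposite way from replicate 1 to 3 (medians 5.26 and 0.788 CPM) and was called lower in replicate 3. The part of these cells in the differences of the interferon genes was not tested. The macrophage markers summed to medians of 5.09, 4.81 and 5.28 CPM, with Vsig4 at 0 and C1qa, C1qb, C1qc and Cd163 at 10 counts or fewer in every library. Of the plasmacytoid dendritic cell markers, Siglech, Ccr9, Klk1, Cox6a2 and Ly6d were at 10 counts or fewer in every library; only Bst2, itself an interferon-induced gene, exceeded that. Lymphoid markers summed to 1.59 to 5.25 CPM.

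**Figure D4:**
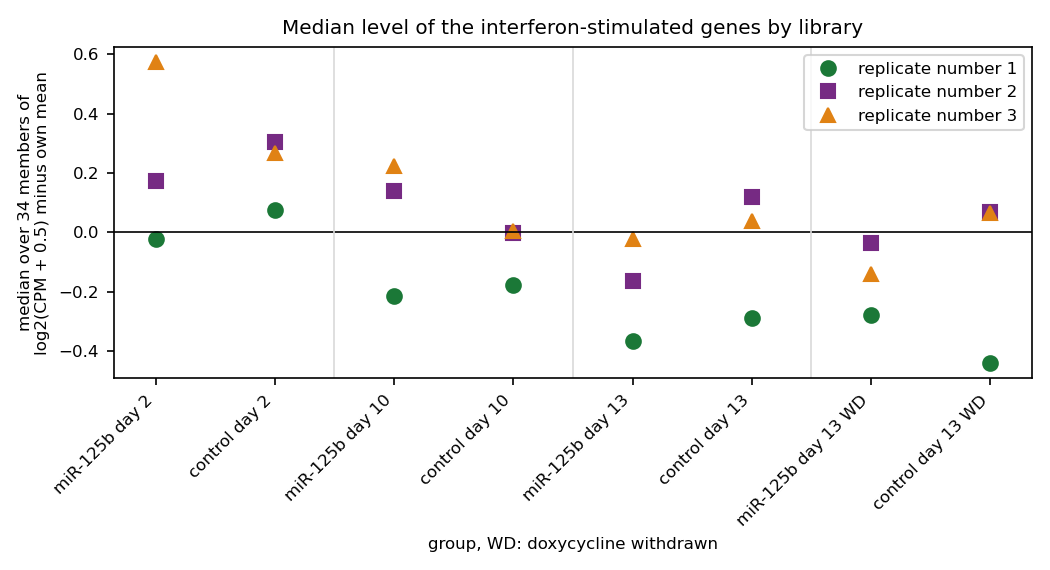
Median over the 34 tested genes of log2(CPM + 0.5) minus each gene's own mean, 1 point per library, by group (WD, withdrawal) and replicate number. The highest library is replicate 3 of miR-125b on day 2 (0.57) and the lowest replicate 1 of the controls after withdrawal (-0.44).

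The median level was highest on day 2. Replicate 3 of the miR-125b group on day 2 stood 0.57 above the genes' own means, with 28 of 34 genes above; the other day 2 libraries stood between -0.022 and 0.31. Leaving that library out, a choice made after seeing the data, left 18, 15 and 8 genes called for replicates 2 against 1, 3 against 1 and 3 against 2, beside 35.6%, 10.2% and 25.1% of all tested genes. Besides the calls of Mx1, Oas1a and Bst2 given above, that of Ifi35 for replicate 3 against 2 was lost (edgeR adjusted p = 0.089). Without the 2 groups of day 2 the counts were 15, 13 and 9 of 33, beside 34.1%, 11.3% and 23.8%. Calls then lost were those of Bst2, Sp100, Trim30a and Adar for replicate 2 against 1 (edgeR adjusted p = 0.0537 to 0.0606), of Oas1a, Mx1, Ifit1 and Usp18 for 3 against 1 (0.0557 to 0.132) and of Ifi35 for 3 against 2 (0.169).

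The comparison of miR-125b with its control asks whether raising this microRNA changed the interferon genes at a given time. In the model without replicate numbers none of the 34 passed on day 2 (0.0% of all tested genes did), on day 10 (0.872%; 0.455% higher and 0.417% lower), on day 13 (0.0%) or after withdrawal (0.119%; 0.0447% higher and 0.0745% lower) by edgeR. At an unadjusted p under 0.05 there were 3, 5, 1 and 4 genes, beside 5.28%, 17.4%, 2.89% and 8.55% of all tested genes. DESeq2 called 1 on day 10, 1 after withdrawal and none at the other times. The median log2 difference was 0.00097 on day 2 and 0.02 on day 10, then -0.17 between the libraries labelled day 13 and -0.20 after withdrawal, with 28 and 25 of 34 genes lower at the last 2. Medians over all tested genes ran from -0.016 to 0.0042. Neutrophil markers summed to 41.8 to 59.7 CPM with miR-125b after withdrawal and 6.02 to 40.7 CPM in controls, and to 29.8 to 98.4 and 5.63 to 31.3 CPM on day 10; megakaryocyte markers overlapped between the arms at each time (3250 to 5190 and 2860 to 7270 CPM after withdrawal). The part of such cells in these differences was not tested.

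Over the mean of the 4 conditions Parp14 fell (1 of 34 genes, against 1.28% of all tested genes). Parp14 (chr16:35832874-35871544 in mm10, minus strand) encodes an ADP-ribosyltransferase that is induced by interferon, and its 3′ untranslated region holds a match to the miR-125b seed. In replicates 1, 2 and 3 it measured 21.9, 23.2 and 21.4 CPM with miR-125b on day 2 and 28.02, 28.4 and 29.6 CPM in controls. On day 10 it measured 17.3, 19.4 and 19.1 CPM with miR-125b and 21.97, 21.4 and 22.7 CPM in controls. These groups did not overlap. The libraries labelled day 13 gave 19.4, 19.1 and 25.1 CPM, and 21.5, 22.6 and 26.2 CPM, which overlapped; after withdrawal the values of 17.9, 20.0 and 20.8 CPM with miR-125b lay below the 31.1, 23.7 and 25.6 CPM of the controls. Parp14 was lower in each of the 12 pairs of the same number. The log2 difference was -0.30 ± 0.06 (edgeR adjusted p = 0.0117), and with the replicate number as a block -0.30 (0.0022). It kept its call without any of the 24 libraries, at -0.34 to -0.27.

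With the replicate number as a block, Ifih1, which also carries a seed match, fell by 0.19 ± 0.05 over the 4 conditions on the log2 scale (edgeR adjusted p = 0.0301, and 0.0798 without the block). Its values in replicates 1, 2 and 3 were 30.3, 31.6 and 30.3 CPM with miR-125b on day 2 and 31.5, 33.8 and 38.7 CPM in controls. On day 10 they were 26.9, 31.1 and 32.9 CPM, and 35.1, 30.2 and 32.8 CPM. The groups overlapped on both days. On day 13 the libraries labelled miR-125b gave 33.9, 33.5 and 34.1 CPM and those labelled control 42.2, 35.7 and 38.6 CPM, and after withdrawal the values were 29.6, 30.3 and 27.5 CPM against 41.0, 31.1 and 35.5 CPM, with no overlap at either. Rsad2, with a seed match as well, fell by 0.56 over the 4 conditions with the block (edgeR adjusted p = 0.00947). In the libraries labelled withdrawal it fell by 1.3 ± 0.26 (0.0145), where the ranges overlapped but each pair of the same number was lower. Without the block the edgeR adjusted p were 0.541 and 0.667. With 1 library left out at a time, the withdrawal value without the block ran from -2.25 to -0.286, and 0 of 6 such fits called it. The 5 genes called over the 4 conditions with the block (Usp18 up; Parp14, Rsad2, Ifi27 and Ifih1 down) were 1 of 34 higher against 3.31% of all tested genes and 4 lower against 3.09%. Of the 7 genes with a seed match, the other 4 (Irf1, Oas1a, Trim30a and Ifi35) passed in no miR-125b comparison of either model. Ifi27 and Usp18 held no such match. Pairing of miR-125b with any of these messenger RNAs was not tested.

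**Figure D5:**
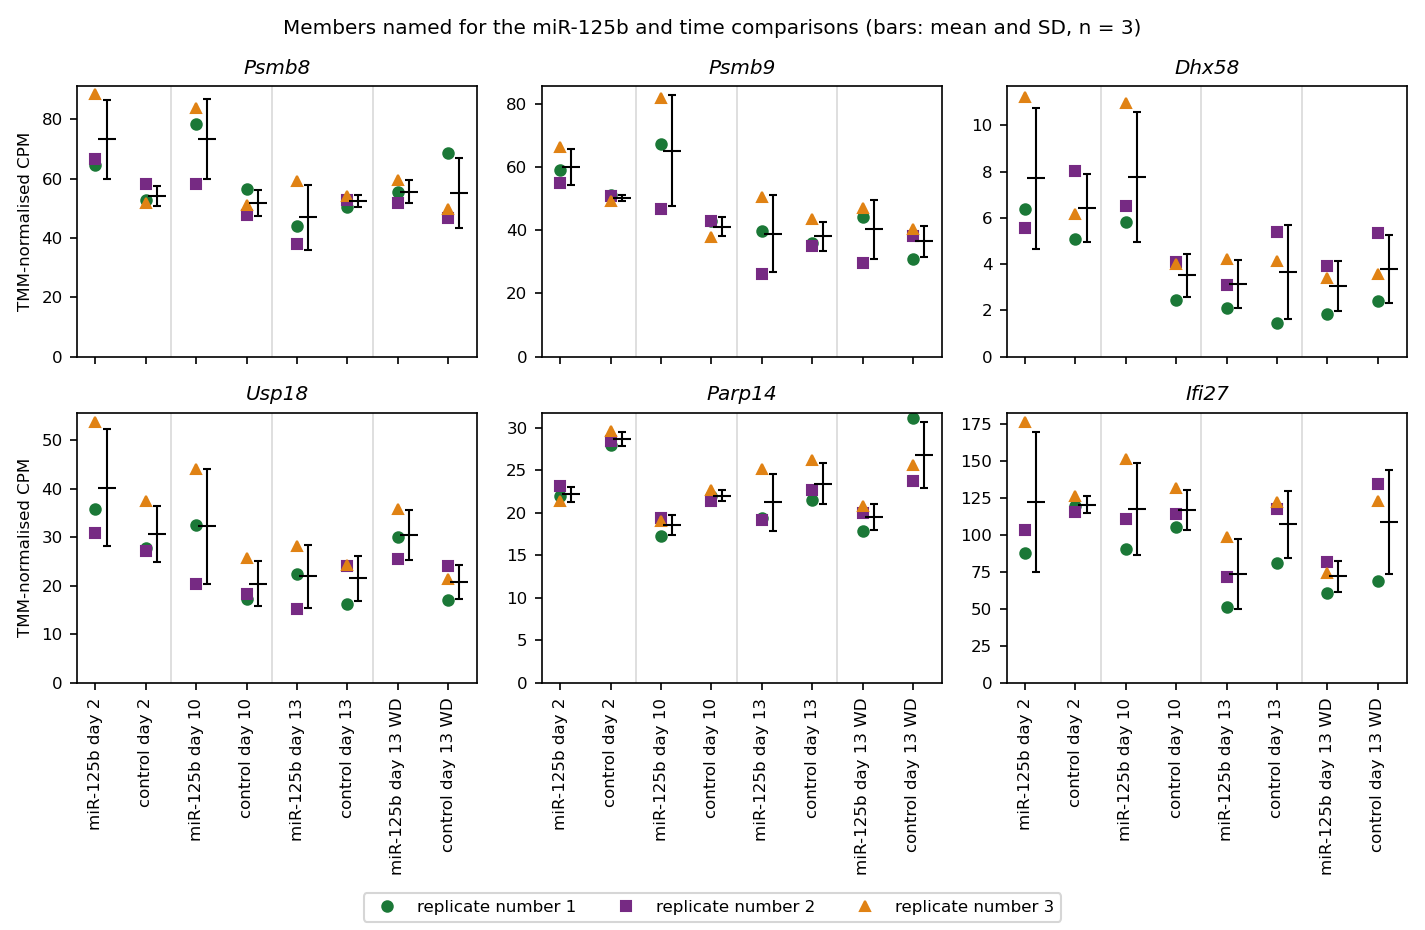
TMM-normalised CPM of Psmb8, Psmb9, Dhx58, Usp18, Parp14 and Ifi27 in the 8 groups (WD, withdrawal). Points are libraries by replicate number, bars the mean and SD (n = 3), and each axis starts at 0. On day 10 the miR-125b libraries of Psmb8, Psmb9 and Dhx58 all lie above the controls, and the Parp14 libraries below.

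On day 10, 4 of 34 genes were higher with miR-125b once the replicate number was a block (4.74% of all tested genes were) and none of these was called without it. On that day the macrophage markers summed to 4.92 to 8.24 CPM with miR-125b and 4.12 to 4.61 CPM in controls, without overlap, beside the neutrophil values above. Over the 24 libraries most of the macrophage sum came from Cd68 (median 4.0 CPM), and 3 of the 10 markers passed the filter. The part of macrophages and neutrophils in these differences was not tested. Psmb8 measured 78.5, 58.1 and 83.8 CPM in replicates 1, 2 and 3 with miR-125b and 56.5, 47.8 and 51.1 CPM in controls. Psmb9 measured 67.4, 46.7 and 81.8 CPM against 43.0, 42.8 and 37.7 CPM. Neither gene's groups overlapped, and Psmb8 also stood apart on day 2, with 64.6, 66.7 and 88.6 CPM against 52.7, 58.2 and 51.7 CPM. The day 10 log2 differences with the block were 0.49 ± 0.14 for Psmb8 and 0.63 ± 0.17 for Psmb9 (edgeR adjusted p = 0.0359 and 0.0258), and 0.124 and 0.11 were the adjusted p without it. The genes are neighbours in the MHC region, Psmb9 at chr17:34181987-34187764 and Psmb8 at chr17:34197721-34201454 in mm10. In the annotation Psmb9 shares exon bases with Tap1 and Psmb8 with an antisense gene, and the strand setting of the counting is not given in the sources used here.

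Dhx58, a helicase that modulates RNA sensing, measured 5.82, 6.49 and 11.0 CPM with miR-125b on day 10 and 2.43, 4.08 and 4.01 CPM in controls, without overlap. On day 2 it measured 6.37, 5.55 and 11.2 CPM, and 5.10, 8.004 and 6.15 CPM, which overlapped. On day 13 the libraries labelled miR-125b gave 2.11, 3.07 and 4.20 CPM and those labelled control 1.43, 5.38 and 4.14 CPM. After withdrawal the groups overlapped as well, with 1.84, 3.91 and 3.41 CPM against 2.42, 5.35 and 3.57 CPM. The day 10 log2 difference was 1.15 ± 0.29 with the block (edgeR adjusted p = 0.0196) and 1.15 ± 0.43 without (0.171).

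Usp18 removes ISG15 from proteins and blocks signalling at IFNAR2. It measured 32.5, 20.3 and 43.9 CPM in replicates 1, 2 and 3 with miR-125b on day 10, and 17.2, 18.3 and 25.8 CPM in controls. On day 2 it measured 35.9, 30.9 and 53.7 CPM, and 27.7, 27.2 and 37.4 CPM. These groups overlapped, with the miR-125b library higher in each pair. On day 13 it was 22.4, 15.3 and 28.3 CPM against 16.2, 24.1 and 24.2 CPM, and after withdrawal 30.1, 25.5 and 35.8 CPM against 17.2, 23.98 and 21.3 CPM, the latter without overlap. With the block Usp18 rose by 0.64 ± 0.19 on day 10 and by 0.39 ± 0.09 over the 4 conditions on the log2 scale (edgeR adjusted p = 0.0397 and 0.0164; without it 0.221 and 0.194).

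Psmb9 outside day 10 measured 59.1, 55.1 and 66.4 CPM with miR-125b on day 2 against 51.1, 50.8 and 49.2 CPM. On day 13 it measured 39.9, 26.2 and 50.6 CPM against 36.01, 35.03 and 43.5 CPM, and after withdrawal 44.1, 29.7 and 47.2 CPM against 30.9, 38.4 and 40.3 CPM. Only the day 2 groups of these were apart. Psmb8 was at 44.0, 37.9 and 59.1 CPM in the libraries labelled miR-125b, day 13, against 50.3, 52.9 and 54.2 CPM, and at 55.4, 51.7 and 59.4 CPM against 68.6, 46.9 and 49.7 CPM after withdrawal.

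Ifi27, a mitochondrial and nuclear membrane protein gene, was lower over the 4 conditions with the block only, by 0.30 ± 0.08 on the log2 scale (edgeR adjusted p = 0.0402). It measured 87.7, 104 and 177 CPM in replicates 1, 2 and 3 with miR-125b on day 2, and 120, 115 and 127 CPM in controls. On day 10 it measured 90.4, 111 and 152 CPM, and 106, 114 and 132 CPM. Up to day 10 the groups overlapped with no common direction. The libraries labelled day 13 gave 51.7, 71.5 and 98.7 CPM with miR-125b and 81.3, 118 and 123 CPM as controls, and after withdrawal the values were 60.8, 81.7 and 74.2 CPM against 69.0, 135 and 123 CPM, each pair lower with miR-125b.

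Time in culture was the second contrast. From day 2 to day 10 none of the 34 genes passed without the block in either arm by edgeR. Of all tested genes 0.224% did with miR-125b (0.134% higher and 0.0894% lower) and 0.0% in controls. An unadjusted p under 0.05 was found for 2 and 5 members, beside 14.9% and 6.75% of all tested genes. Negative fold changes were seen for 26 and 31 of 34, with medians of -0.16 and -0.28. The medians over all tested genes were 0.018 and -0.0044. DESeq2 called none in either arm. In the edgeR model with the block, 6 members with miR-125b and 17 in controls had an unadjusted p under 0.05. The shares of all tested genes were 22.2% and 11.7%. With the block Rtp4 and Oasl2 fell with miR-125b, by 0.96 ± 0.24 and 1.09 ± 0.29 on the log2 scale (edgeR adjusted p = 0.031 and 0.039; 2.06% of all tested genes fell). In controls the same genes had values of -0.96 ± 0.23 and -1.14 ± 0.29 with adjusted p of 0.0976 and 0.11. The interaction of miR-125b with this time step was significant for none of 34 genes in either model by edgeR (0 with an unadjusted p under 0.05 without the block, 3 with it) or by DESeq2.

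From day 10 to day 13 under continued drug, Psmb8 fell in the libraries labelled miR-125b by 0.65 ± 0.17 on the log2 scale (edgeR adjusted p = 0.04), 1 of 34 genes against 1.35% of all tested genes that fell and 2.18% that rose. In this arm 27 of 34 genes had a negative fold change, the median was -0.41 (-0.029 over all tested genes), and 7 had an unadjusted p under 0.05 (20.5% of all tested genes did). The groups overlapped, and each same-numbered pair was lower. The call was lost without replicate 1 or 3 of day 10, or replicate 1 or 2 of day 13, with log2 values from -0.84 to -0.50 over all 6 omissions. With the block 6 genes fell (6.93% of all tested genes did): Dhx58 by 1.32 ± 0.29, Psmb8 by 0.65 ± 0.14, Psmb9 by 0.75 ± 0.17, Ifi27 by 0.68 ± 0.17, Xaf1 by 0.82 ± 0.26 and Sp100, a nuclear body gene, by 0.46 ± 0.13 (edgeR adjusted p = 0.00769 to 0.0391). In controls none of the 34 passed (0.0224% of all tested genes did, 0.00745% higher and 0.0149% lower), and 1 had an unadjusted p under 0.05 (3.51% of all tested genes did). There DESeq2 called none, 18 of 34 had a positive fold change, and the median was 0.02. The difference between the arms over this step was not tested. Since Arid3a in the libraries labelled miR-125b, day 13, lay near the controls, these values follow the label of libraries whose check was weak.

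Withdrawal of doxycycline, set against continued drug on day 13, gave no call among the 34 genes in either arm and model (0.0% of all tested genes in the model without the block). In that model 0 of 34 members in each arm had an unadjusted edgeR p under 0.05. Of all tested genes 2.21% did with miR-125b and 2.65% in controls. Medians were 0.03 with miR-125b and 0.05 in controls, and the interaction of miR-125b with withdrawal had a median of -0.03. DESeq2 called none in these comparisons. If the 2 miR-125b labels of day 13 were exchanged, the miR-125b difference would change its sign, which Arid3a cannot settle.

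Other genes of the pathway, from lists that do not include the 36 apart from Usp18, were counted in the same way. Of the 68 tested, none passed for miR-125b on day 10 without the block, 1 after withdrawal (0.119% of all tested genes did), 1 over the 4 conditions (1.28%) and 2 from day 10 to day 13 in the libraries labelled miR-125b (3.53%). With the block 9 passed on day 10 (8.63%), 2 after withdrawal (1.86%), 11 over the 4 conditions (16.2% of the 68, against 6.39%), 5 from day 2 to day 10 with miR-125b (4.08%) and 16 from day 10 to day 13 in that arm (13.4%). Gbp2, an interferon-induced GTPase, fell by 1.4 ± 0.26 on the log2 scale in the libraries labelled miR-125b, withdrawal (edgeR adjusted p = 0.0259) and by 0.52 ± 0.12 over the 4 conditions (0.0413). Tap1, the peptide transporter beside Psmb9, and Irf5 fell from day 10 to day 13 in the libraries labelled miR-125b, by 0.76 ± 0.19 and 1.0 ± 0.23 (0.0346 and 0.0282). None of the 9 tested receptor and kinase genes passed for condition without the block. Between replicate numbers the 42 tested further interferon-induced genes included 20 that were higher and 3 lower in replicate 2 than in 1 (18.5% and 16.6% of all tested genes). In replicate 3, 14 were higher and 0 lower than in 1 (5.97% and 5.33%). The lead genes were Mndal (2.09 ± 0.20, adjusted p = 1.12e-07), Ifi47 (0.90 ± 0.09) and Irgm1 (0.47 ± 0.06) for replicate 2, and Igtp (0.70 ± 0.09, 4.99e-05), Oas2 (1.6 ± 0.22) and Irgm1 (0.35 ± 0.06) for replicate 3. Over all the lists, 26 of the 68 were higher and 13 lower in replicate 2 than in 1 (18.5% and 16.6% of all tested genes). The lower genes with the lowest p were Ptpn6, the phosphatase SHP-1 (-0.68 ± 0.09), Ifnar1 (-0.30 ± 0.06) and the immunoproteasome gene Psmb10 (-0.37 ± 0.07). Of the 9 receptor and kinase genes, 5 were lower and 2 higher in replicate 2 than in 1 (16.6% and 18.5% of all tested genes). From replicate 2 to 3 the receptor genes Il10rb, Ifngr1 and Ifngr2 were higher, by 0.62 ± 0.10, 0.43 ± 0.08 and 0.42 ± 0.07, while Mndal, Oas1g and Ifi47 were lower (-1.57 ± 0.20, -1.12 ± 0.17 and -0.62 ± 0.09).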

How the data were processed

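The authors deposited a table of raw read counts per Ensembl gene, made with fastp, HISAT2 2.0.5 and featureCounts on mm10, per the submitters' processing notes; annotation, strand and multi-mapping settings are not given in the sources used here. Symbols (46488 identifiers matched), coordinates and exon lengths come from GENCODE M21 (GRCm38). Here the counts were filtered with filterByExpr by group (13419 genes kept), TMM-normalised and fitted with edgeR 4.0.16 (R 4.3.3; quasi-likelihood, Benjamini-Hochberg adjustment over all tested genes, threshold 0.05), with 1 coefficient per group on 24 libraries (16 residual degrees of freedom). Replicate numbers were compared in the model of group plus number (14 degrees of freedom), which is also the block alternative. Same-numbered libraries deviated together (84 pairs, r 0.153 to 0.824, median 0.528, on log2(CPM + 0.5); different numbers, median -0.339), so the numbers pair libraries. No 2 libraries of a group agreed within sampling noise (chi-square per degree of freedom 11.0 to 101). DESeq2 1.42.0, RLE factors, no filter, subsets of libraries and each library left out were alternatives. Scripts were tested on simulated data. Values in every library are given for Isg15, Ifit1, Irf7, Irf9, Stat2 and Usp18, for at most 8 genes called in a condition comparison by either model, for the 6 with the lowest p for replicate number and for the 2 with the highest. The 36 genes, the other lists and the rules were chosen with earlier results of these data known. Some genes of the other lists are not reported here.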

Additional observations from a re-analysis of the deposited data

Results flagged for a closer look

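The difference between miR-125b and control on log2(CPM + 0.5) went opposite ways on day 10 and after withdrawal for 2 genes, in all 3 pairs of the same number each time. For Isg15 it was 0.26 on day 10 and -0.48 after withdrawal, a gap of 0.74. For Dhx58 it was 1.02 and -0.26, a gap of 1.28. Every pair of the 4 conditions was searched for this pattern in all genes whose values in every library are given. How many such cases random directions would give was not computed. Some Isg15 differences were small: 9.181 against 9.015 CPM in replicate 2 on day 10, and 2.002 against 2.035 CPM in replicate 1 after withdrawal. The difference between the conditions was not tested. The second value of each gene rests on the label of the miR-125b withdrawal libraries, which Arid3a cannot tell from that of day 13.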

How the results depend on the processing

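Counts of called genes over the alternatives run here: with the replicate block, which pairs same-numbered libraries, the calls among 34 genes were 4 for miR-125b on day 10, 2 after withdrawal, 5 over the mean of the 4 conditions, 2 for day 10 against day 2 with miR-125b and 6 for day 13 against day 10 with miR-125b; it changed no other count of calls for conditions. DESeq2 gave 1, 1, 2 and 3 for day 10, withdrawal, the mean and day 13 against day 10 with miR-125b. In the 12 control libraries alone, 10 genes were called for replicate 3 against 1 (5.64% of all tested genes) and 5 for replicate 3 against 2 (19.4%). With 1 library left out at a time, the counts were 0 to 2 on day 10 (2 without miR-125b day 10 replicate 2), 1 to 2 for the mean (2 without control withdrawal replicate 2), 0 to 2 for day 13 against day 10 with miR-125b (0 without day 10 replicate 1 or 3 or day 13 replicate 1 or 2; 2 without day 10 replicate 2 or day 13 replicate 3) and 0 to 0 in the other condition comparisons. Among values of single genes under the other alternatives, 279 kept their side of the threshold, 45 lost a call, 22 gained one and none changed direction. The cause of these changes was not tested. Depth limits Ifit1, Zbp1, Mx1 and Oasl2, whose lowest libraries held 1, 0, 9 and 20 counts.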

Other observations

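With the replicate number as a block, 8 of the 68 tested genes of the other pathway lists were higher with miR-125b on day 10 and 1, Nmi, was lower; the lowest p were those of Irf5 (log2 difference 0.76 ± 0.15, edgeR adjusted p = 0.00572), Tap1 (0.65 ± 0.14, 0.00823) and B2m (0.52 ± 0.13, 0.0239), the shared light chain of class I. Over all tested genes 4.74% were higher and 3.89% lower. From day 10 to day 13 in the libraries labelled miR-125b, 15 of the 68 fell (6.93% of all tested genes did) and Ptpn6 rose by 0.57 ± 0.14. Irf5 fell by 1.02 ± 0.15, Tap1 by 0.75 ± 0.14 and Tapbp, the tapasin gene, by 0.60 ± 0.12 (adjusted p = 0.00122, 0.00351 and 0.00535). Without the block Irf5 and Tap1 were the 2 of 68 that passed in that step, and none passed on day 10. The day 10 libraries enter both comparisons.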
